A study of Mus musculus with 40 samples.

Results

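Intercalated cells of the renal connecting tubule and collecting duct secrete acid or base into the urine, and 9 genes that carry this work were followed in mouse kidney tissue: Car2, Atp6v0a4, Atp6v1g3, Atp6v0d2, Slc4a1, Slc26a4, Rhcg, Rhbg and Foxi1. The 9 genes were chosen by name from the 55382 genes of the kidney count table, and all 9 passed the filter on low counts that left 15943 genes to test. Each of 4 groups held 5 kidneys. EC-EGFR-KO mice carried floxed Egfr alleles and the Tek-cre transgene, which acts from the Tie2 promoter in endothelial cells and also in blood-forming cells, and EC-EGFR-WT mice carried the Cre without the floxed alleles. Both genotypes received either standard fat diet (SFD, with 10% of its energy from fat) or high fat diet (HFD, with 60%) for 18 weeks, starting at an age of 6 weeks. The floxed line is given as C57BL/6 and the Tek-cre line as C57BL/6J. The recombination was not inducible, and the sex of the animals is not given in the sources used here. The comparisons asked whether the diet, the endothelial deletion, or both together altered the transcript levels of these genes.

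Carbonic anhydrase 2, the product of Car2, hydrates carbon dioxide in the cytosol and so delivers protons and bicarbonate to the transporters. In type A intercalated cells the vacuolar proton pump (V-ATPase) in the apical membrane secretes the protons, while the anion exchanger AE1, the product of Slc4a1, returns bicarbonate to the blood. In type B cells pendrin, the product of Slc26a4, secretes bicarbonate in exchange for chloride. Rhbg and Rhcg pass ammonia, the main carrier of acid in urine, and Foxi1 is the forkhead transcription factor on which intercalated cells depend.

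Slc26a4 and Rhcg varied together more closely than any other pair of these genes, as described further on, and their upstream sequences are shown for that reason. RefSeq promoter sequences (GRCm38.p6) matched 5 of the 9 genes, namely Atp6v1g3, Atp6v0a4, Slc26a4, Foxi1 and Rhcg. The 250 bases before the start of each gene are printed 5′ to 3′ along the minus strand, for Slc26a4 from chr12:31559985-31560234 and for Rhcg from chr7:79617658-79617907, with a TATAAA motif in capitals.
Slc26a4: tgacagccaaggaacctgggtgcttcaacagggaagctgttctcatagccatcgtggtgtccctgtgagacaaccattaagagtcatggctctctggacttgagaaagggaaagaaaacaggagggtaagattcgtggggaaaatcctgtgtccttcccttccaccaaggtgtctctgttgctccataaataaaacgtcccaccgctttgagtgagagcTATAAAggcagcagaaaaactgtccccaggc
Rhcg: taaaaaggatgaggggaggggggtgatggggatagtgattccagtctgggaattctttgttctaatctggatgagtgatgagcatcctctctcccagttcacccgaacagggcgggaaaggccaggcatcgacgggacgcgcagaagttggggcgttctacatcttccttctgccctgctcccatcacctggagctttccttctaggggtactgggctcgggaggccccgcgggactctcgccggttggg
The TATAAA motif begins 31 bases before the start of Slc26a4, and neither TATAAA nor its reverse complement TTTATA was found in the Rhcg window. Either orientation occurs in 12.4% of all promoter windows of this length. The Rhcg window holds 12 CpG dinucleotides and the Slc26a4 window 4. A forkhead core, TGTTTAC or on the other strand GTAAACA, was in none of the 5 matched promoters, counting also the 50 bases after the start, and was in 1199 of 32851 promoters (3.65%). These letter matches describe the windows only.

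The level of the 9 genes was compared per length, as FPM (the paper's unit, here the counts scaled to 1000000 per normalised library) per kilobase of exon, over 19 kidney libraries. Car2 was the most abundant, with a median of 143 FPM per kilobase. Atp6v0a4, which encodes a membrane subunit of the proton pump, followed at 48.3 and the ammonia channel gene Rhcg at 46.4, and the ranges of these 2 genes over libraries overlapped. Slc26a4 lay at 25.3 and Atp6v1g3, which encodes a subunit of the catalytic part of the pump, at 20.8, again with overlapping ranges. Atp6v0d2, for another membrane subunit, had a median of 9.44, Slc4a1 6.61, Foxi1 5.86 and Rhbg 3.34 FPM per kilobase. Of the exonic bases of Rhbg, 1190 (61.4%) are shared on the same strand with the gene model Gm38392, which did not exceed 0.09 FPM, so the level of Rhbg is uncertain. Atp6v0a4 shares 259 exonic bases (5.21%) on the same strand with D630045J12Rik. The range of Car2 lay above all others, and Rhcg and Slc26a4, like Atp6v1g3 and Atp6v0d2, had ranges that did not overlap, while each remaining neighbour in this order overlapped with the next. The spread between libraries was widest for Rhbg, with a coefficient of variation of 26.9%, and for Foxi1, with 25.8%, and narrowest for Atp6v0a4, with 10.4%. In 20 aortas of the same series Atp6v1g3, Foxi1 and Rhcg had 0 counts in every library, and Rhbg in 15 of 20.

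Total counts ranged from 19643033 to 48833447 per kidney. Kidney a1 (EC-EGFR-KO, HFD) and kidney a12 (EC-EGFR-WT, HFD) had nearly identical counts, with a median chi-square of 0.0269 per gene against 1.62 for the next closest pair, although their labels name different genotypes. Their total counts, 48788716 and 48833447, were the highest of all kidneys. They count as 1 library in the levels and correlations over 19 libraries, and as separate kidneys in the tests unless left out. Without both, Car2 remained the only one of the 9 genes called for diet, and 0 of the 9 were called for genotype or the interaction. Values without both are given where they bear on a call or move a value. The level of Egfr, the deleted gene, in kidney tissue was 53.1 ± 4.33 FPM (SD, n = 5) in EC-EGFR-KO and 56.3 ± 5.81 FPM in EC-EGFR-WT under SFD, and 42.3 ± 10.4 against 40.5 ± 11.3 FPM under HFD. These differences were not called by edgeR's quasi-likelihood test with Benjamini-Hochberg adjustment (adjusted p = 0.9998 and 0.947). Cells outside the endothelium contribute to these values, so they do not check the deletion.

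Car2, on the plus strand of chromosome 3 (GRCm38/mm10, chr3:14886273-14900770), was higher under HFD in both genotypes. In EC-EGFR-WT kidneys Car2 stood at 295, 261, 274, 344 and 324 FPM under SFD and at 347, 454, 403, 418 and 463 FPM under HFD. Every kidney on HFD lay above every kidney on SFD. The group means were 299.7 ± 34.5 and 417 ± 46.3 FPM (SD, n = 5 each), a 1.39-fold difference (log2 fold change 0.48, SE 0.10, adjusted p = 0.0055, edgeR's quasi-likelihood test with Benjamini-Hochberg adjustment). In EC-EGFR-KO kidneys Car2 stood at 273, 361, 298, 239 and 301 FPM under SFD and at 455, 421, 455, 437 and 427 FPM under HFD. Again the groups did not overlap. The means were 294 ± 44.8 and 439 ± 15.5 FPM, a 1.49-fold difference (log2 fold change 0.58, SE 0.10, adjusted p = 0.00099, same test). Without both a1 and a12 the log2 fold changes were 0.45 (adjusted p = 0.016) and 0.56 (adjusted p = 0.0031). In RNA from mixed tissue, more RNA per cell and a larger share of cells that hold Car2 transcripts cannot be told apart, and Car2 is also transcribed in renal cells other than intercalated cells.

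**Figure D1:**
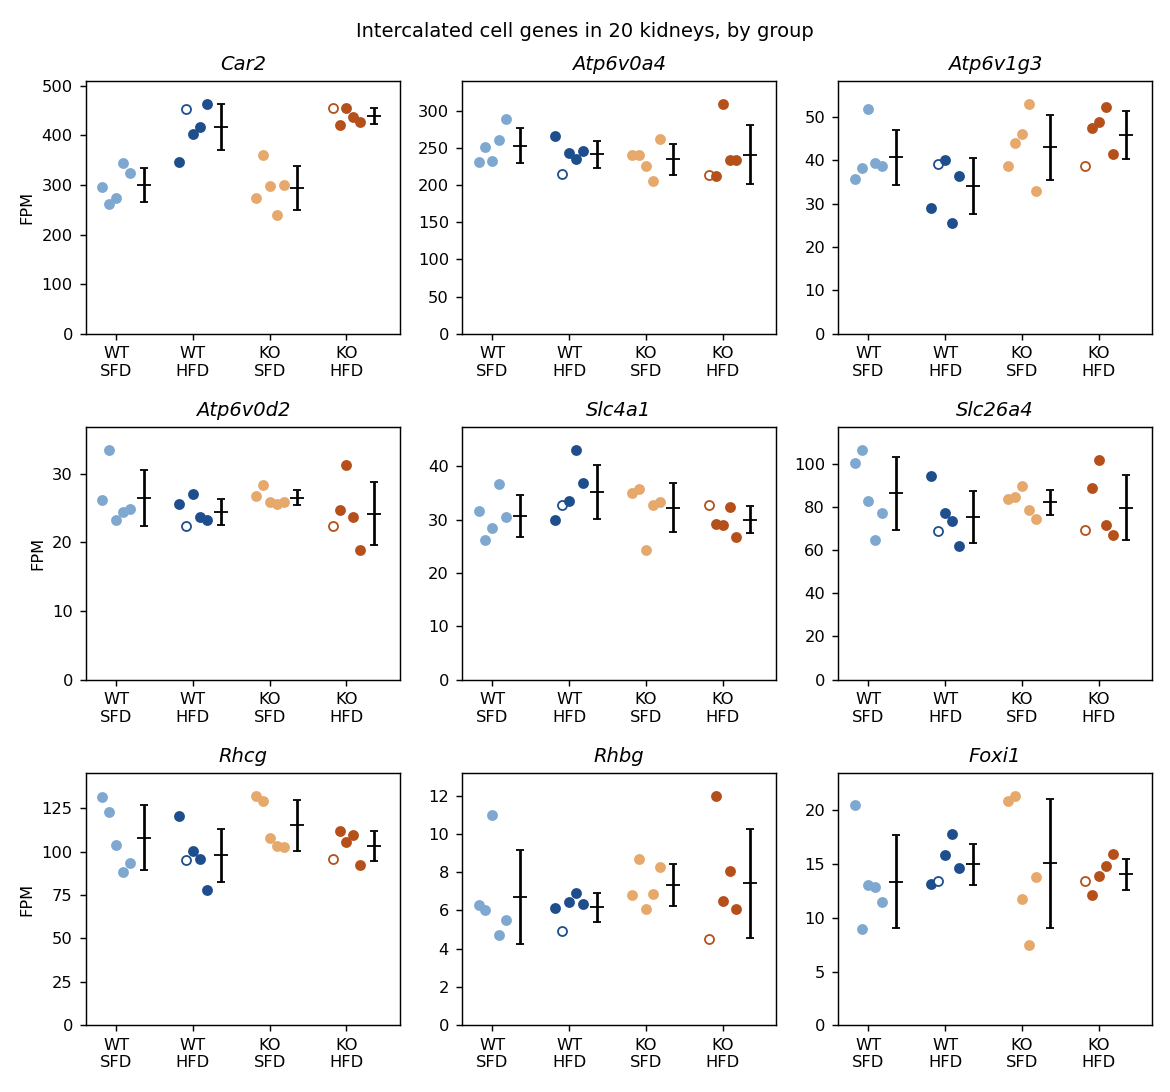
FPM of the 9 genes (vertical axes, from 0) in each of 20 kidneys, grouped by genotype and diet, with group means and SD as black bars and the near-identical libraries a1 and a12 as open circles. The Car2 values under HFD, from 347 to 463 FPM, lie above the SFD values of the same genotype, while the groups of the other 8 genes overlap.

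Car2 was the only one of the 9 genes called for diet at an adjusted p under 0.05, in either genotype and with the genotypes averaged. Over all genes tested the share called was 6.71% in EC-EGFR-WT, 6.34% in EC-EGFR-KO and 16.4% for the average. Under the added demand for a fold change over 1.5 and over 5 FPM, which 2.18%, 2.16% and 2.92% of all genes met, 0 of the 9 genes were called. Groups without overlap were found for Car2 alone of the 9 genes, against 6.64% of all genes in EC-EGFR-WT and 7.81% in EC-EGFR-KO. The median log2 fold change of the 9 genes was -0.12 in EC-EGFR-WT and -0.05 in EC-EGFR-KO, and that of all genes was -0.00027 and -0.0006.

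The pump subunits among the 9 genes were not called for diet. Atp6v0a4 stood at 253 ± 23.6 FPM on SFD and 241 ± 18.5 FPM on HFD in EC-EGFR-WT, with a 95% interval of the log2 fold change from -0.27 to 0.14, and 235 ± 20.9 and 241 ± 39.6 FPM in EC-EGFR-KO, with an interval from -0.17 to 0.24. Atp6v0d2 had intervals from -0.35 to 0.12 and from -0.37 to 0.10. Atp6v1g3 went from 40.7 ± 6.35 to 34.0 ± 6.41 FPM in EC-EGFR-WT, with an interval from -0.55 to 0.03. In EC-EGFR-KO it stood at 42.9 ± 7.58 FPM on SFD and 45.7 ± 5.50 FPM on HFD, with an interval from -0.20 to 0.38. Without both a1 and a12, the diet values of the 8 genes other than Car2 lay between -0.31 and 0.22 in EC-EGFR-WT and between -0.14 and 0.15 in EC-EGFR-KO, none of them called. Without kidney a18, the SFD kidney with the highest Atp6v1g3 in EC-EGFR-WT, the log2 fold change in that genotype was -0.14 in place of -0.26.

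The anion exchangers of both cell types were not called either. Slc4a1 had a log2 fold change of 0.20 (SE 0.11) with HFD in EC-EGFR-WT and of -0.10 (SE 0.11) in EC-EGFR-KO. Slc26a4 had -0.20 (SE 0.14) and -0.05 (SE 0.14). The ratio of Slc26a4 to Slc4a1 FPM, a type B gene over a type A gene, had medians of 2.91 under SFD and 2.11 under HFD in EC-EGFR-WT, and of 2.39 and 2.49 in EC-EGFR-KO, and its ranges overlapped between all 4 groups.

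The ammonia channel genes and Foxi1 completed the set without a call. Rhcg had 108 ± 18.7 and 97.8 ± 15.3 FPM under SFD and HFD in EC-EGFR-WT and 115 ± 14.4 and 103 ± 8.61 FPM in EC-EGFR-KO, and the log2 fold change averaged over genotypes was -0.15 (SE 0.08, adjusted p = 0.24, edgeR's quasi-likelihood test with Benjamini-Hochberg adjustment). Rhbg rested on 124 to 251 counts per library, and its intervals ran from -0.60 to 0.36 and from -0.47 to 0.49. Foxi1 had intervals from -0.32 to 0.64 and from -0.58 to 0.38. Its lowest levels were 7.44 FPM in kidney a9 (EC-EGFR-KO, SFD) and 8.98 FPM in kidney a17 (EC-EGFR-WT, SFD). Kidneys a8, a9 and a17 stood apart in a score of immediate-early genes, at 3.57, 4.12 and 3.85 against at most 0.09 elsewhere. All 3 were SFD kidneys. Kidney a8 had 11.8 FPM of Foxi1, more than kidney a20 (EC-EGFR-WT, SFD) with 11.4 FPM and a score of -0.75. Averaged over genotypes, where 16.4% of all genes were called, 7 of the 9 genes of that score were called lower under HFD. Among them were Fosb, Atf3, Nr4a1, Egr1 and Ier2. In either genotype alone 0 of the 9 genes of the score were called, and the averaged calls were lost without a1 and a12. Without these 3 kidneys the log2 fold change of Foxi1 with HFD was 0.05 in EC-EGFR-WT and -0.41 in EC-EGFR-KO (adjusted p = 0.28, same test), and the part of these genes in the level of Foxi1 was not tested.

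**Figure D2:**
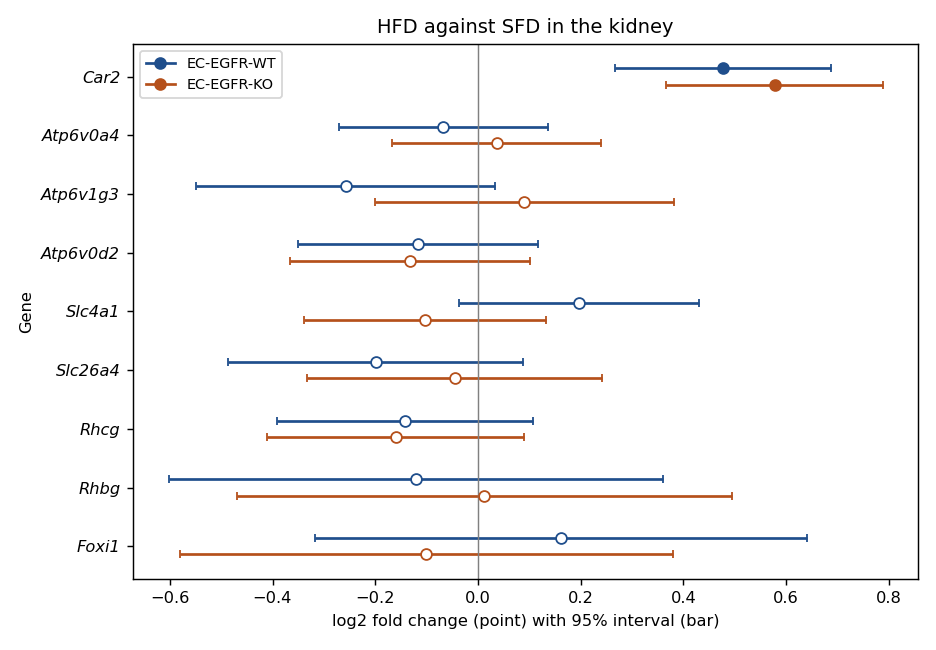
Log2 fold change of HFD against SFD (horizontal axis) for the 9 genes (vertical axis) in EC-EGFR-WT (blue) and EC-EGFR-KO (orange) kidneys, with 95% intervals as bars and filled points for an adjusted p under 0.05. The Car2 intervals, from 0.27 to 0.69 and from 0.37 to 0.79, lie above 0, and those of the other 8 genes include 0.

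The endothelial deletion gave no call among the 9 genes, under SFD, under HFD, averaged over diets or as an interaction with diet (edgeR's quasi-likelihood test, 0 of 9 each). Over all genes the share called was 0% in each of these comparisons, with 426, 546, 768 and 285 genes at an unadjusted p under 0.05. DESeq2 and edgeR's likelihood ratio test also called 0 of the 9 genes. Groups without overlap were found for 0 of the 9 genes, against 0.464% of all genes under SFD and 0.169% under HFD. Car2 differed between genotypes by a log2 fold change of -0.03 under SFD, with a 95% interval from -0.24 to 0.18, and of 0.07 under HFD, with an interval from -0.14 to 0.28. The interaction for Car2 was 0.10, with an interval from -0.20 to 0.40.

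At an unadjusted p under 0.05 there was 1 of the 9 genes under HFD, Atp6v1g3, and 0 under SFD. On HFD the EC-EGFR-WT kidneys had 29.1, 39.1, 40.1, 25.5 and 36.4 FPM of Atp6v1g3, and the EC-EGFR-KO kidneys 38.7, 47.4, 48.8, 52.2 and 41.5 FPM. The groups overlapped only through the EC-EGFR-KO kidney a1 at 38.7 FPM, which is one of the near-identical pair. The log2 fold change was 0.43 (SE 0.14, adjusted p = 0.81, edgeR's quasi-likelihood test with Benjamini-Hochberg adjustment). Without both a1 and a12 it was 0.54 (adjusted p = 0.49, same test). Slc4a1 stood at -0.23 (SE 0.11, adjusted p = 0.81) in the same comparison, and at -0.29 (adjusted p = 0.49) without the pair. Neither difference passed the correction over all genes. The interaction of diet and genotype was 0.35 (SE 0.20) for Atp6v1g3 and -0.30 (SE 0.16) for Slc4a1 on the log2 scale, and both missed the threshold (adjusted p = 0.99997, same test). Without both a1 and a12 the interactions were 0.46 and -0.36 (adjusted p = 0.96 each, same test), with unadjusted p of 0.037 and 0.049.

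**Figure D3:**
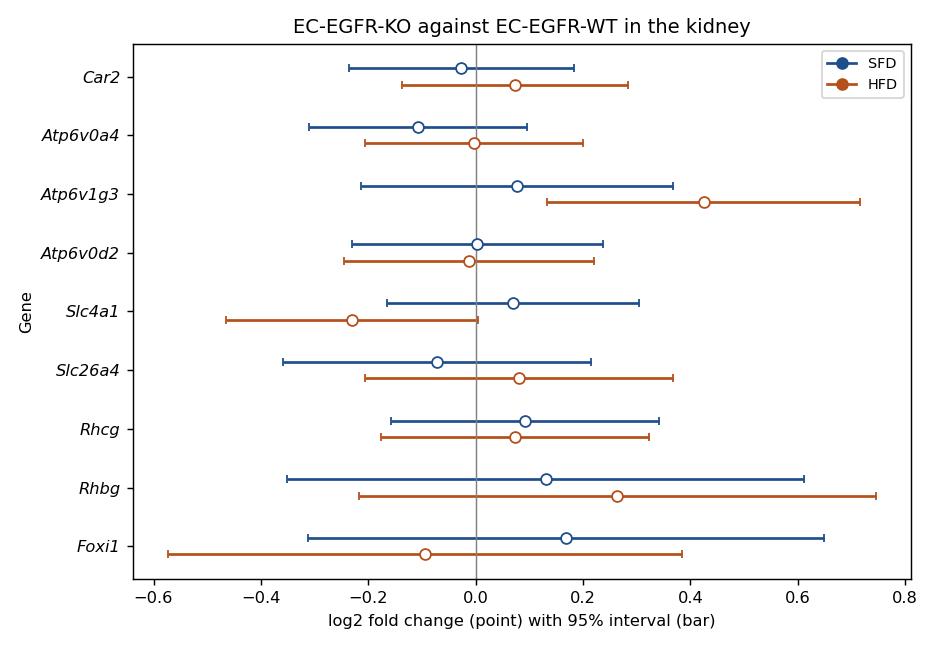
Log2 fold change of EC-EGFR-KO against EC-EGFR-WT (horizontal axis) for the 9 genes (vertical axis) under SFD (blue) and HFD (orange), with 95% intervals as bars and open points where the adjusted p was not under 0.05, which holds for all 18 points. The interval of Atp6v1g3 under HFD, from 0.13 to 0.72, is the only one that does not include 0 before adjustment.

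Related genes were counted in lists of renal acid-base genes. Some listed genes were not tested because they had 0 counts in every kidney. These were Car5b, Car12, Atp6v0d1, Atp6ap1, Atp6ap2, Slc26a6 and Slc38a3, and among the segment markers Kcnj1 and Hsd11b2. Whether these zeros reflect the kidneys or the counting was not tested, so they are not read as absent transcripts. Of 11 other carbonic anhydrase genes 8 were tested, and 1 rose and 2 fell with HFD in EC-EGFR-WT, while 1 rose and 1 fell in EC-EGFR-KO. Car13, a cytosolic form, rose from 2.05 to 3.79 FPM in EC-EGFR-WT (log2 fold change 0.89, SE 0.24) and from 1.52 to 3.76 FPM in EC-EGFR-KO (1.30, SE 0.25). Car9, a membrane form, fell from 18.9 to 11.1 FPM and from 18.5 to 11.2 FPM. Car4, the membrane-anchored form of the proximal tubule and thick ascending limb, fell from 206 to 143 FPM in EC-EGFR-WT, and had 209 and 161 FPM in EC-EGFR-KO without a call there. Averaged over genotypes Car4 was called lower (-0.45, adjusted p = 0.00053, edgeR's quasi-likelihood test with Benjamini-Hochberg adjustment). Without both a1 and a12, Car13 in EC-EGFR-WT was no longer called (log2 fold change 0.86, adjusted p = 0.054, edgeR's quasi-likelihood test with Benjamini-Hochberg adjustment), and Car4 in EC-EGFR-KO was (-0.42, adjusted p = 0.023). Car13, Car1, Car3 and Car2 lie in this order within 259 kb of chromosome 3. Car1 averaged 0.017 FPM and was not tested, and Car3 was not called, with log2 fold changes of 0.21 (SE 0.43) and 0.58 (SE 0.43).

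**Figure D4:**
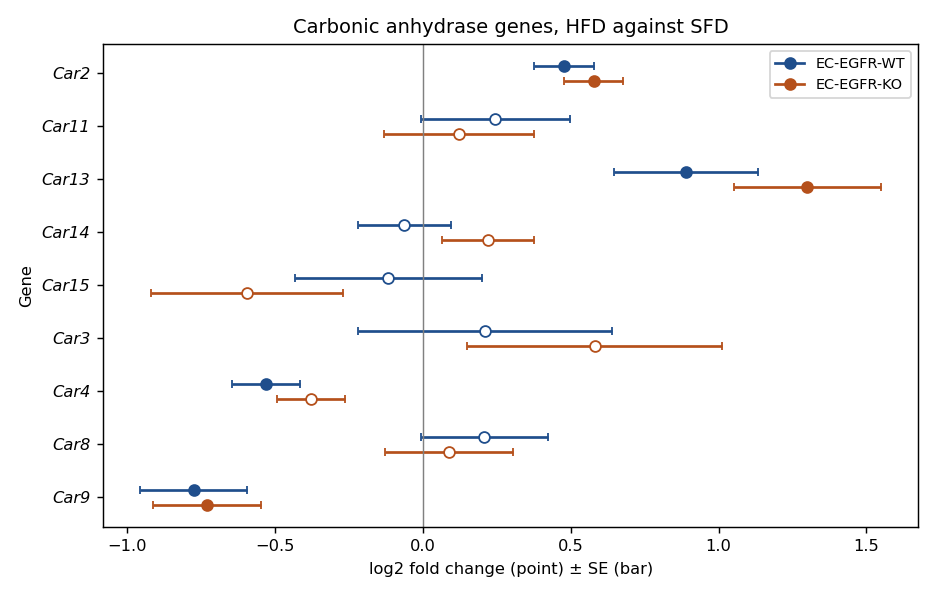
Log2 fold change of HFD against SFD (horizontal axis, bars show SE) for Car2 and the 8 other carbonic anhydrase genes tested (vertical axis), in EC-EGFR-WT (blue) and EC-EGFR-KO (orange) kidneys, with filled points for an adjusted p under 0.05. With all 20 kidneys Car2 and Car13 rose in both genotypes and Car9 fell in both, and without a1 and a12 Car13 missed the threshold in EC-EGFR-WT (adjusted p = 0.054).

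Of 22 other V-ATPase subunit and accessory genes 18 were tested, and 2 rose and 0 fell with HFD in each genotype. Among those not tested, Atp6v0d1, Atp6ap1 and Atp6ap2 had 0 counts in every kidney. Atp6v0e2, for a small membrane subunit, rose from 32.9 to 58.1 FPM in EC-EGFR-WT (log2 fold change 0.82, SE 0.10) and from 33.9 to 61.7 FPM in EC-EGFR-KO (0.86, SE 0.10). Atp6v1g2 rose in EC-EGFR-WT from 3.43 to 5.04 FPM and Atp6v1g1, the widely expressed paralogue of Atp6v1g3, in EC-EGFR-KO from 207 to 266 FPM. Averaged over genotypes both were called higher, Atp6v1g2 by 0.44 and Atp6v1g1 by 0.28 (adjusted p = 0.0058 and 0.0099, edgeR's quasi-likelihood test with Benjamini-Hochberg adjustment). The median log2 fold change of the 18 genes was -0.002 in EC-EGFR-WT and 0.13 in EC-EGFR-KO, with 2 and 7 of them at an unadjusted p under 0.05. Between genotypes under HFD 0 of the 18 were called. At an unadjusted p under 0.05 there were 4 of the 18 in that comparison, against 546 of all 15943 genes. Of 19 other bicarbonate, chloride and proton transporter genes 18 were tested and 0 were called for diet, with 0 in EC-EGFR-WT and 3 in EC-EGFR-KO at an unadjusted p under 0.05. Over all 15943 genes 3090 and 3112 stood at that level. Without both a1 and a12, Slc4a4 of this list was called averaged over genotypes (log2 fold change 0.34, adjusted p = 0.048, edgeR's quasi-likelihood test with Benjamini-Hochberg adjustment).

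Of 5 genes of renal ammonia production 4 were tested, and 2 rose in EC-EGFR-WT and 3 in EC-EGFR-KO. Glud1, the mitochondrial glutamate dehydrogenase, rose from 546 to 711 FPM and from 541 to 735 FPM. The amino acid transporter gene Slc7a8 rose from 104 to 197 FPM and from 97.3 to 193 FPM. Pck1, a key enzyme of renal gluconeogenesis, rose in EC-EGFR-KO from 2297 to 3450 FPM (log2 fold change 0.59, SE 0.17, adjusted p = 0.046, edgeR's quasi-likelihood test with Benjamini-Hochberg adjustment). It was not called there without both a1 and a12 (0.59, adjusted p = 0.080). Averaged over genotypes Pck1 was called with all kidneys (0.54, adjusted p = 0.0039, same test) and without both (0.55, adjusted p = 0.0076). Of 12 other intercalated cell and acid-base sensor genes, 0 were called with HFD in EC-EGFR-WT and 1 in EC-EGFR-KO, where Dmrt2, a transcription factor gene of type A cells, fell from 4.94 to 3.30 FPM, a call that was lost without a1 and a12 (log2 fold change -0.58, adjusted p = 0.095, same test). Averaged over genotypes, Dmrt2 and the kinase gene Ptk2b (-0.19, SE 0.06) were lower and Tfcp2l1, a transcription factor gene of intercalated cells, was higher (0.26, SE 0.09), and without a1 and a12 the averaged calls of Dmrt2 and Ptk2b were lost (adjusted p = 0.079 and 0.068, same test).

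The summed level of 5 general intercalated cell markers, some of which are among the 9 genes, ranged from 184 to 214 FPM under SFD and from 173 to 208 FPM under HFD in EC-EGFR-WT. In EC-EGFR-KO it ranged from 194 to 228 FPM and from 173 to 216 FPM, and so overlapped between all groups. Under HFD the sum of 4 type A markers, Slc4a1 among them, did not overlap between genotypes. It was 82.2 to 104 FPM in EC-EGFR-WT and 67.1 to 82.1 FPM in EC-EGFR-KO, and 0 of the 4 were called there. With HFD their median log2 fold change was 0.02 in EC-EGFR-WT and -0.28 in EC-EGFR-KO, where 1 of the 4, Dmrt2, was called. Sums of 4 type B markers overlapped between all groups, with medians of -0.21 and -0.13 and 0 of 4 called. Single markers of other segments were called for diet. In each genotype 0 of 4 podocyte, 0 of 5 endothelial and 0 of 5 tested principal cell markers were called. With HFD 4 of 4 podocyte and 5 of 5 endothelial markers had positive log2 fold changes in each genotype. Of the principal cell markers 0 of 5 did. The medians of these lists were 0.30, 0.30 and -0.26 in EC-EGFR-WT, and 0.17, 0.10 and -0.14 in EC-EGFR-KO. Summed levels of these lists, and of the distal tubule, thick ascending limb and proximal tubule lists, also overlapped between diets. Inner medulla sums overlapped in EC-EGFR-WT but not in EC-EGFR-KO, at 217 to 355 FPM on SFD and 154 to 208 FPM on HFD. Pvalb, of the distal convoluted tubule, rose from 22.3 to 53.5 FPM in EC-EGFR-WT and from 22.0 to 68.3 FPM in EC-EGFR-KO, with 1 of 4 markers of its list called in each genotype. Slc12a1, the sodium, potassium and chloride cotransporter of the thick ascending limb, fell in EC-EGFR-KO from 1024 to 668 FPM, as 1 of 3 tested. Averaged over genotypes, Slc12a3 of the distal convoluted tubule was higher (log2 fold change 0.43, SE 0.13) and Fxyd4 of principal cells lower (-0.51, SE 0.12). Slc12a1 was also called lower in that average (-0.41). Of 5 proximal tubule markers, Slc5a2 of the early segment rose from 359 to 632 FPM in EC-EGFR-WT and from 373 to 672 FPM in EC-EGFR-KO. Slc27a2, a fatty acid transport gene, fell in EC-EGFR-KO from 4660 to 3497 FPM, a call that was lost without a1 and a12 (adjusted p = 0.051, edgeR's quasi-likelihood test with Benjamini-Hochberg adjustment). Averaged over genotypes Slc27a2 was called lower with all kidneys (-0.35, adjusted p = 0.0037, same test) and without a1 and a12 (-0.32, adjusted p = 0.012). The other 3 were not called in either genotype, and the median log2 fold change of the 5 markers was -0.15 and -0.01. Their summed level had medians of 12763 and 11267 FPM under SFD and HFD in EC-EGFR-WT, and of 12494 and 11254 FPM in EC-EGFR-KO. Of 3 inner medulla markers Akr1b3 fell in EC-EGFR-WT from 128 to 60.5 FPM, and was called lower averaged over genotypes (log2 fold change -0.76). The part of these markers in the rise of Car2 was not tested. Slc4a1 is also a red blood cell gene, and summed hemoglobin transcripts ranged from 751 to 3039 FPM over the 20 kidneys, with 0 of 5 tested red blood cell genes called for diet or genotype.

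Across 19 libraries, which share the diet and depth differences of the series, the 9 genes did not vary as 1 block. Pearson's r of log2 FPM was 0.78 between Slc26a4 and Rhcg, 0.74 between Slc26a4 and Atp6v0d2 and 0.55 between Atp6v0d2 and Rhcg. It was -0.51 between Slc4a1 and Slc26a4 and -0.45 between Slc4a1 and Atp6v1g3. Among 13507 genes, the genes most like Slc26a4 were Slc4a9 (r = 0.84), Gm10109 (0.83, from 1.64 FPM) and Hepacam2 (0.78). Those most like Rhcg were Gm10109 (0.83), Atp6v1b1 (0.81) and Slc35b3 (0.81). Car2 was most like Cyp2d26 (0.96), Tfpi2 (0.95) and Idh1 (0.95), and its r with the other 8 genes lay between -0.46 (Rhcg) and 0.34 (Foxi1). Atp6v0a4 was most like Oxsm (0.91), Iars (0.87) and Xpr1 (0.86), and Foxi1 like Gm43597 (0.85), Dcun1d2 (0.85) and Fam117a (0.81). Atp6v1g3 was most like Nhej1 (0.78), Gm11633 (0.76) and Aven (0.75), Atp6v0d2 like Gm27028 (0.79), Crybg1 (0.77) and Cav2 (0.76), Slc4a1 like Gm2004 (0.79), Sclt1 (0.76) and Slc35f5 (0.75), and Rhbg like Rps12.ps3, Vkorc1 and Gm10275 (each 0.84).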

How the data were processed

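RNA from kidney tissue was sequenced by the authors, mapped to mm10 and counted per gene with featureCounts. The paper states that organs were partly frozen and partly fixed. Which part of each kidney gave the RNA is not given in the sources used here. The paper's methods name TopHat2 for mapping, and the submitters' processing notes name HISAT2 2.1.0. The deposited values are raw counts, neither normalised nor filtered. Strand setting and handling of reads in overlapping genes are not given in the sources used here. All 20 kidneys were fitted together in edgeR 4.0.16 (R 4.3.3) with TMM normalisation, filterByExpr and a robust quasi-likelihood fit, with groups from the labels and p-values adjusted by Benjamini-Hochberg over 15943 genes. A gene was called at an adjusted p under 0.05. FPM are counts scaled to 1000000 per TMM-normalised library. The labels do not say whether litters were shared, so p-values measure the spread between these samples. Likeness was Pearson's r of log2(FPM + 0.5) among genes of at least 1 FPM on average, with the 3 highest named per gene. From the related lists, genes called in a diet comparison were named, at most 5 per list. The 9 genes and all lists were chosen with earlier results of these data known. Exon lengths and overlaps came from the mm10 gene annotation, and promoters from RefSeq. On simulated data for HFD in EC-EGFR-WT over 15803 genes, calls recovered 31.8% of 1.5-fold, 66.7% of 2-fold and 92.2% of 3-fold changes. Alternatives were DESeq2 1.42.0 (its size factors and its Wald test), the likelihood ratio test, other filters, covariates, fits of the compared groups only, an added fold change rule and libraries left out.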

Additional observations from a re-analysis of the deposited data

Results flagged for a closer look

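In 5 of 36 sets of 5 kidneys (9 genes in 4 groups), 1 kidney lay far from the other 4 by Dixon's criterion, where chance alone gives about 1.8 such sets. Kidney a18 (EC-EGFR-WT, SFD) was high for Atp6v1g3, at 51.77 FPM against 35.6 to 39.3 FPM, and for Rhbg, at 10.97 FPM against 4.72 to 6.29 FPM. Kidney a17 of the same group was high for Atp6v0d2, at 33.50 FPM against 23.2 to 26.2 FPM. Kidney a3 (EC-EGFR-KO, HFD) was high for Atp6v0a4, at 309 FPM against 213 to 234 FPM. Kidney a8 (EC-EGFR-KO, SFD) was low for Slc4a1, at 24.39 FPM against 32.8 to 35.7 FPM. None of the Car2 groups held such a kidney. Without a18 the log2 fold change of Rhbg with HFD in EC-EGFR-WT was 0.14 in place of -0.12, and neither was called. That of Atp6v0d2 in EC-EGFR-WT was -0.02 without a17, in place of -0.12. In EC-EGFR-KO, Atp6v0a4 stood at -0.06 without a3, in place of 0.04, and Slc4a1 at -0.19 without a8, in place of -0.10. None of these values was called.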

How the results depend on the processing

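Car2 was called for HFD in all 69 refits of the 3 diet comparisons, with log2 fold changes from 0.43 to 0.54 in EC-EGFR-WT, 0.50 to 0.66 in EC-EGFR-KO and 0.47 to 0.57 averaged. With a fold change over 1.5 and over 5 FPM also required, the number of the 9 genes called was 0 in each of these comparisons, in place of 1. This added rule can only keep or lower the number. Car2 missed it at 1.39-fold in EC-EGFR-WT, 1.49-fold in EC-EGFR-KO and 1.44-fold averaged. The other values of the 9 genes, 1434 in all, gave 0 calls, and 105 of them changed sign without a call in either fit. Leaving out each replicate kept 1 gene called for diet and 0 for genotype or the interaction. Over all genes, the calls for HFD in EC-EGFR-WT were 1069, but 607 when only the compared groups were fitted. In EC-EGFR-KO they were 1011, but 582 without a8, a9 and a17. For the deletion averaged over diets DESeq2 and the likelihood ratio test each called 1 gene, in place of 0. Related genes were also refitted without a1 and a12, an alternative chosen after seeing the data. Calls for Car13 in EC-EGFR-WT and for Dmrt2, Slc27a2 and Pck1 in EC-EGFR-KO were then lost, as were the averaged calls for Dmrt2, Ptk2b, E2f5 and the immediate-early genes. Calls were gained for Aqp3, Fxyd4 and Slc12a3 in EC-EGFR-WT and for Fxyd4 and Car4 in EC-EGFR-KO. Averaged over genotypes, calls were gained for Slc4a4, Aqp3 and Calb1 and kept for Slc27a2 and Pck1. No paired analysis was possible because the groups share no replicate numbers. At this spread a 1.5-fold change was often missed in the simulated data, so an absent call does not show an unchanged gene. The simulation covered 15803 genes, not the 9 genes alone. For Atp6v0a4, Atp6v0d2, Atp6v1g3, Slc4a1, Slc26a4 and Rhcg, the log2 diet intervals in both genotypes lay between -0.55 and 0.43. A 1.5-fold change in either direction lay outside these intervals, while those of Foxi1 and Rhbg in EC-EGFR-WT reached 0.64 and -0.60.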

Other observations

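Slc7a12, an amino acid transporter gene that lies before Car13, Car1, Car3 and Car2 on chromosome 3, rose with HFD by a log2 fold change of 3.17 (SE 0.56) in EC-EGFR-WT and 1.88 (SE 0.54) in EC-EGFR-KO (adjusted p = 0.0017 and 0.044, edgeR's quasi-likelihood test with Benjamini-Hochberg adjustment). Lrrcc1, E2f5 and Rbis, which lie between Slc7a12 and Car13, were not called in either genotype, with log2 fold changes from -0.17 to 0.06, although E2f5 was lower when the genotypes were averaged (-0.13, adjusted p = 0.020, same test). Without both a1 and a12 Slc7a12 stood at 3.41 and 2.06 (adjusted p = 0.00038 and 0.014), and E2f5 was not called (-0.11, adjusted p = 0.074). The neighbours were chosen after the result for Car2 was known.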
